A study of Homo sapiens with 54 samples.

Results

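PHF19 and the genes of Polycomb repressive complex 2 (PRC2) were followed through 9 transfections of H4 cells, in the total lysate and in the RNA bound to Argonaute. The 8 genes are PHF19, PHF1, MTF2, EZH1, EZH2, SUZ12, EED and JARID2, taken by gene symbol, and each had 1 probe set. They are 8 of the 18417 genes with a probe set of a single symbol. PHF19 was selected on its lower lysate signal after transfection with microRNAs of the miR-15 and miR-107 group in these arrays, and the other genes because their proteins work with it. Its lysate values are therefore given as a description with no test, and PHF19 was tested in the immunoprecipitate only. The immunoprecipitates come from the same transfections as the lysates, so that test is not independent of the selection. A filter on low values left 7 of the 8 genes among the 11050 tested, and MTF2 fell below it.

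PRC2 is the enzyme complex that methylates lysine 27 of histone H3, a mark of repressed chromatin. EZH2 or its relative EZH1 carries the methyltransferase activity, and SUZ12 and EED are needed for the complex to hold together and to work. PHF1, MTF2 and PHF19 are the 3 Polycomb-like proteins, which bring the core to DNA and to modified histone tails, and JARID2 is a further accessory subunit that does not share a complex with them. EZH2 is best known as a gene of dividing cells, while EZH1 is also made in cells that have stopped dividing. MicroRNAs guide Argonaute to partly complementary messages, usually through the seed, bases 2 to 8 of the microRNA, and lower their level or translation.

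H4 is a human line with a glioneuronal phenotype, and cells were harvested 48 h after transfection. The transfected RNAs of the miR-15 and miR-107 group were the pair miR-103 and miR-107 and the pair miR-16 and miR-195. The others were the unrelated miR-320, miR-15b* and 2 altered forms of miR-107 called miR-107-mut1 and miR-107-mut2. The negative control RNA came from Ambion. The labels call miR-15b* an anti-sense control and also write it as miR-15b. Each transfection gave an immunoprecipitate with the anti-Argonaute antibody 2A8 (IP) and a total lysate in 3 biological replicates, so that 54 Affymetrix Human Gene 1.0 ST arrays fell into 18 groups. All groups share the cell line and the transfection, and untransfected cells were not analysed here.

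The mature sequences are shown because the seed separates the RNAs that follow. They are those of RefSeq (GRCh38.p14), written 5′ to 3′ with the seed in capitals, and the capitals in the first pair differ from those in the second.
miR-103: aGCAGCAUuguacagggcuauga
miR-107: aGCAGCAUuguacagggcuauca
miR-16: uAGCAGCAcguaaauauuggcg
miR-195: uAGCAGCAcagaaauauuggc
miR-15b*: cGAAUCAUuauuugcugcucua
miR-103 is encoded at chr5:168560904-168560926 (minus strand) and at chr20:3917541-3917563 (plus strand), and miR-107 at chr10:89592756-89592778 (minus strand). miR-16 lies at chr3:160404754-160404775 (plus strand) and at chr13:50049027-50049048 (minus strand), miR-195 at chr17:7017667-7017687 (minus strand) and miR-15b* at chr3:160404645-160404666 (plus strand). miR-103 and miR-107 share the seed GCAGCAU and differ over 23 bases by G22C, counted from 1 at the 5′ end of miR-103. miR-16 and miR-195 share the seed AGCAGCA and differ by G10A and U11G over 21 bases, counted in the same way from miR-16. The run AGCAGCA stands at bases 1 to 7 of miR-103 and miR-107 and at bases 2 to 8 of miR-16 and miR-195, so the pairs carry the same letters at seed positions offset by 1. The sequence printed for miR-15b* is the RefSeq entry hsa-miR-15b-3p, the current name of a star strand, and its seed GAAUCAU is not shared with the others. miR-320 is not printed, and those of both altered forms of miR-107 and of the control RNA were not used here.

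Signals are deposited RMA values read as log2, and changes are differences of log2 values ± SE with the fold in linear terms. Array means ran from 3.61 to 3.65 in the IP and from 7.11 to 7.17 in the lysates, so levels were not compared between the fractions except by rank. The number of arrays limits the precision. Replicate 2 of the miR-103, miR-15b* and miR-16 lysates stood apart from the other lysate arrays, with mean correlations of 0.978, 0.965 and 0.969 against a median of 0.986. Replicate 2 of the miR-107 IP (0.909) and replicate 1 of the miR-15b* IP (0.82) stood apart from the other IP arrays (median 0.945), and the changes that move most without these 5 arrays are given with and without them. VIM, an intermediate filament gene of glial and many cultured cells, had 12.54 ± 0.04 (SD, n = 3) in the control lysates, while the astrocyte markers GFAP and S100B had 6.51 ± 0.14 and 4.21 ± 0.29 and the pan-leukocyte marker PTPRC 3.59 ± 0.02. Among neuronal genes SYT1 had 9.06 ± 0.03, MAP2 8.14 ± 0.07, SNAP25 7.64 ± 0.18 and RBFOX3 7.46 ± 0.19. The neurofilament genes NEFL and NEFM were lower, at 6.69 ± 0.09 and 5.46 ± 0.21. No background signal was given to say which of these genes is absent.

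PHF19, a Polycomb-like protein whose Tudor domain binds methylated lysine 36 of histone H3, had the lowest lysate signals in the cells that received 1 of the 4 microRNAs of this group or miR-107-mut2. The 3 replicates stood at 7.65, 7.71 and 7.49 with miR-103 and at 7.73, 7.38 and 7.69 with miR-107. They stood at 8.21, 8.44 and 7.56 with miR-16, at 8.33, 7.80 and 8.08 with miR-195 and at 7.72, 7.65 and 7.81 with miR-107-mut2. The negative control lysates had 10.46, 10.53 and 10.39, far above all 15 of these arrays. Cells with miR-320 (9.81, 10.56 and 10.59) and miR-107-mut1 (10.63, 10.83 and 10.92) lay near or above the control range. miR-15b* cells (9.34, 10.16 and 9.65) lay between the sets, below every control array.

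Against the negative control the PHF19 lysate signal was 7.17-fold lower with miR-103 (log2 change -2.84 ± 0.22) and 7.25-fold lower with miR-107 (-2.86 ± 0.22). It was 5.24-fold lower with miR-16 and with miR-195 (-2.39 ± 0.22 each) and 6.64-fold lower with miR-107-mut2 (-2.73 ± 0.22). The changes with the remaining RNAs were -0.74 with miR-15b*, -0.14 with miR-320 (0.12 without miR-320 replicate 1) and 0.33 with miR-107-mut1. Ordered from low to high the group means were miR-107 (7.60 ± 0.19), miR-103 (7.62 ± 0.12), miR-107-mut2 (7.73 ± 0.08), miR-16 (8.07 ± 0.46), miR-195 (8.07 ± 0.27), miR-15b* (9.72 ± 0.41), miR-320 (10.32 ± 0.44), negative control (10.46 ± 0.07) and miR-107-mut1 (10.79 ± 0.15). Within the 5 low groups the neighbours overlapped in their replicates, and the gap between miR-195 and miR-15b* was the widest in the order. miR-15b*, miR-320 and the negative control overlapped in turn, and miR-107-mut1 lay above the control. The pair of altered molecules thus split: miR-107 minus miR-107-mut1 was -3.19 ± 0.22 (9.13-fold lower), while miR-107 minus miR-107-mut2 was -0.13 ± 0.22, with a 95% interval of -0.58 to 0.33. In the contrast of miR-103 and miR-107 with miR-16 and miR-195 the PHF19 lysate signal differed by -0.46 ± 0.16. These 11 lysate values chose the gene or share its arrays, and without the arrays that stand apart the largest shift was in miR-15b* (-0.96).

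**Figure D1:**
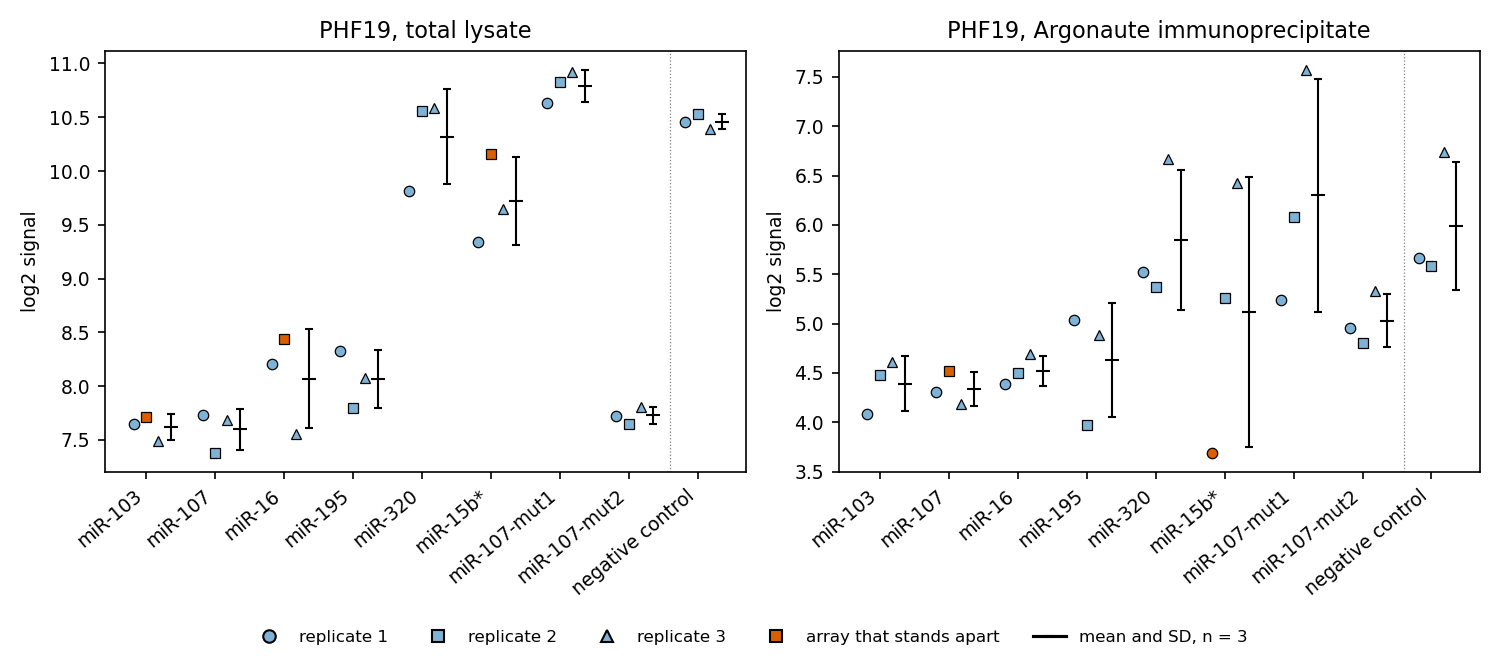
PHF19 log2 signal (vertical axis) in the total lysate (left) and the Argonaute immunoprecipitate (right) after each of the 9 transfections, with 1 marker for each of 3 replicates, the mean and SD beside them, and arrays that stand apart in orange. The lysates with miR-103, miR-107, miR-16, miR-195 and miR-107-mut2 lie between 7.38 and 8.44, and the negative control lysates between 10.39 and 10.53. The vertical scales differ between the fractions.

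Both methyltransferase genes were lower in lysates where PHF19 was low, but EZH1 was also called lower with miR-107-mut1, where PHF19 was highest. EZH2, the main catalytic subunit in dividing cells, had 8.79, 7.58 and 9.05 in miR-103 lysates and 8.47, 8.75 and 8.88 in miR-107 lysates. It had 8.86, 7.85 and 9.30 with miR-16 and 8.65, 9.07 and 9.09 with miR-195, against 9.77, 10.26 and 10.05 in negative control lysates. All 12 arrays of these microRNAs lay below the 3 control arrays. EZH2 fell 2.93-fold with miR-103 (log2 change -1.55 ± 0.37, adjusted p = 0.0046), 2.51-fold with miR-107 (-1.33 ± 0.37, adjusted p = 0.014) and 2.56-fold with miR-16 (-1.36 ± 0.37, adjusted p = 0.012). With miR-195 it fell 2.13-fold (-1.09 ± 0.37), and the adjusted p lay just under the threshold before it rounds to 0.05. In miR-107-mut2 lysates EZH2 had 8.81, 9.04 and 9.0, a change of -1.07 ± 0.37 that missed the threshold (adjusted p = 0.054). The changes with miR-15b* (-0.61, adjusted p = 0.3), miR-320 (-0.29, adjusted p = 0.96) and miR-107-mut1 (0.25, adjusted p = 0.85) did not pass.

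The low EZH2 values of replicate 2 with miR-103 (7.58), miR-16 (7.85) and miR-15b* (8.44) came from the lysate arrays that stand apart. Without those arrays the change was -1.11 ± 0.17 with miR-103 (adjusted p = 6.3e-05) and -0.94 ± 0.17 with miR-16 (adjusted p = 0.00036), and over all alternatives the adjusted p ran from 6.3e-05 to 0.045 and from 0.00036 to 0.1. The miR-107-mut2 change passed in the same setting (-1.07 ± 0.15, adjusted p = 2.2e-05), with a range of 2.2e-05 to 0.18. The miR-195 call was lost on leaving out any of its 6 arrays (adjusted p 0.061 to 0.17). The miR-107 call was lost without miR-107 replicate 1 (adjusted p = 0.061) or control replicate 2 (adjusted p = 0.068), and the miR-16 call without miR-16 replicate 2 (adjusted p = 0.1) or control replicate 2 (adjusted p = 0.061).

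EZH1, the second methyltransferase, moved less but with little spread. Its lysate replicates stood at 7.95, 8.14 and 8.10 with miR-103, at 8.10, 8.14 and 8.10 with miR-107, at 8.26, 8.14 and 8.34 with miR-16 and at 8.12, 8.23 and 8.15 with miR-195. Those with miR-107-mut2 stood at 7.97, 7.77 and 7.92 and those with miR-107-mut1 at 8.20, 8.14 and 8.12, against 8.52, 8.49 and 8.51 in negative control lysates. Each of these 18 arrays lay below the control range. EZH1 fell 1.54-fold with miR-107-mut2 (-0.62 ± 0.08, adjusted p = 9e-06), 1.36-fold with miR-103 (-0.44 ± 0.08, adjusted p = 0.00037) and 1.32-fold with miR-107 (-0.40 ± 0.08, adjusted p = 0.001). It fell 1.28-fold with miR-107-mut1 (-0.35 ± 0.08, adjusted p = 0.0053), 1.26-fold with miR-195 (-0.34 ± 0.08, adjusted p = 0.0046) and 1.20-fold with miR-16 (-0.26 ± 0.08, adjusted p = 0.027). The miR-320 change of -0.24 ± 0.08 did not pass (adjusted p = 0.12) and miR-15b* gave 0.11 ± 0.08 (adjusted p = 0.38). The miR-16 call was lost without replicate 1 or 2 of miR-16 or without any 1 of the control arrays (adjusted p 0.053 to 0.14), and without the arrays that stand apart (adjusted p = 0.057), in a range of 0.0076 to 0.32 over all alternatives.

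SUZ12 and EED, the scaffold and the histone-reading subunit of the core, were called in no lysate comparison of limma with the groups alone. SUZ12 had 8.61, 7.77 and 8.81 with miR-103, 8.91, 7.21 and 9.23 with miR-16 and 8.83, 6.93 and 8.71 with miR-15b*, against 9.12, 9.70 and 9.40 in negative control lysates. Replicate 2 was the lowest of each of these 3 groups, and it is the array that stands apart. The SUZ12 changes were -1.01 ± 0.43 with miR-103 (adjusted p = 0.11), -0.96 ± 0.43 with miR-16 (adjusted p = 0.14) and -1.25 ± 0.43 with miR-15b* (adjusted p = 0.082). Without the arrays that stand apart they were -0.70 ± 0.18 (adjusted p = 0.0071), -0.34 ± 0.18 (adjusted p = 0.21) and -0.63 ± 0.18 (adjusted p = 0.024) and smaller SE. Over all alternatives the adjusted p ran from 0.0071 to 0.39 for miR-103, from 0.037 to 0.73 for miR-16 and from 0.024 to 0.48 for miR-15b*. In the same setting SUZ12 passed with miR-107-mut2 (-0.78 ± 0.16, adjusted p = 0.001; 0.001 to 0.48 over all alternatives) and with miR-107 (-0.47 ± 0.16, adjusted p = 0.032; 0.032 to 0.84). SUZ12 has a near-identical pseudogene copy, SUZ12P1, with its own probe set. SUZ12P1 stood between 7.99 and 8.64 in the 27 lysates, and how far each probe set reads the other copy was not tested.

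EED was likewise lowest on the arrays that stand apart. Its lysate values were 7.90, 7.08 and 8.11 with miR-103, 7.80, 6.86 and 8.15 with miR-16 and 7.88, 7.21 and 8.20 with miR-15b*, against 7.99, 8.46 and 8.31 in negative control lysates. The changes ran from -0.65 ± 0.29 with miR-16 (adjusted p = 0.13) to -0.04 ± 0.29 with miR-107-mut1 (adjusted p = 0.98). Without the arrays that stand apart the miR-16 change was -0.28 ± 0.18 (adjusted p = 0.32), and the adjusted p ran from 0.031 (without miR-16 replicate 3) to 0.66 over all alternatives.

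**Figure D2:**
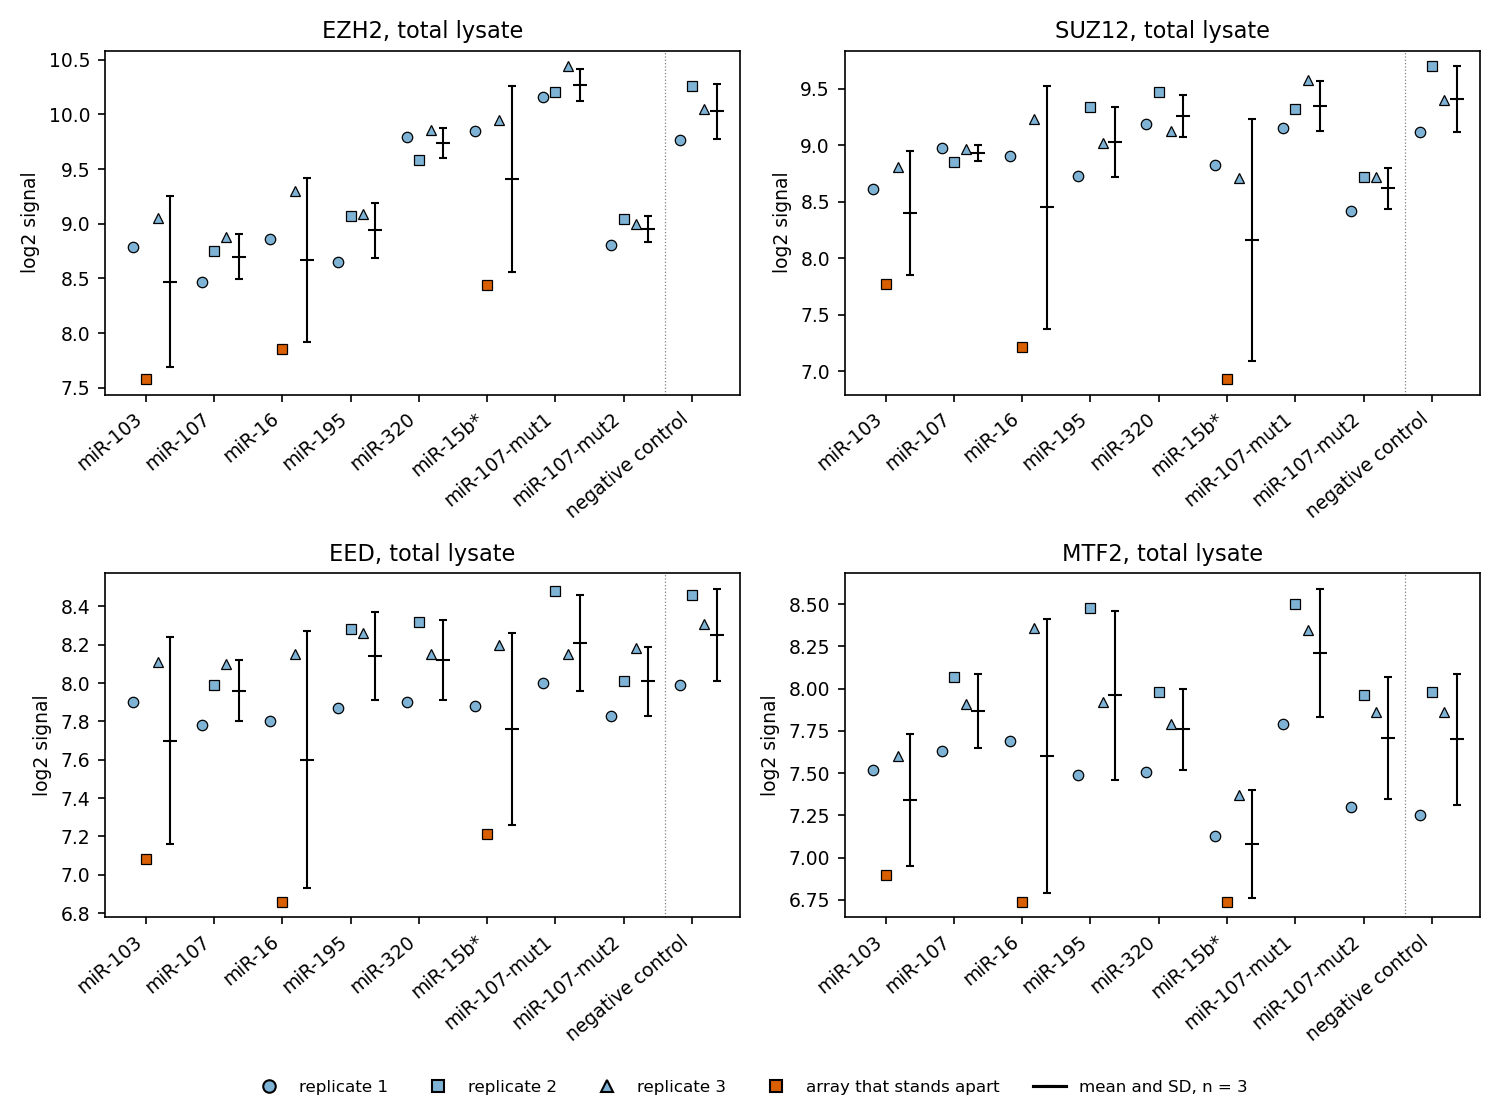
Lysate log2 signal (vertical axis) of EZH2, SUZ12, EED and MTF2 after each transfection, drawn as markers for 3 replicates beside their mean and SD, with arrays that stand apart in orange. Replicate 2 of the miR-103, miR-16 and miR-15b* lysates is the lowest of its group in all 4 panels, and EZH2 is below the control range in all 12 lysates of miR-107, miR-103, miR-195 and miR-16.

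Of the other accessory genes, none was called lower than the control in a lysate. PHF1, another Polycomb-like gene, had 10.53, 11.03 and 10.64 with miR-103, 10.67, 10.64 and 10.55 with miR-107 and 11.21, 11.14 and 11.06 with miR-107-mut1, against 10.35, 10.27 and 10.32 in negative control lysates. All 9 of these arrays were above the controls. PHF1 rose 1.77-fold with miR-107-mut1 (0.82 ± 0.17, adjusted p = 0.0023), a call kept on leaving out each of the 6 arrays. Its changes of 0.42 ± 0.17 with miR-103 (adjusted p = 0.09), 0.31 ± 0.17 with miR-107 (adjusted p = 0.28) and 0.36 ± 0.17 with miR-107-mut2 (adjusted p = 0.17) did not pass with all arrays. Without the arrays that stand apart these 3 changes were 0.27 (adjusted p = 0.035), 0.31 (adjusted p = 0.0069) and 0.36 (adjusted p = 0.0024). Over all alternatives the adjusted p ran from 0.035 to 0.39, from 0.0069 to 0.48 and from 0.0024 to 0.33. The PHF1 changes with miR-16, miR-195, miR-320 and miR-15b* were 0.15, -0.06, 0.08 and 0.33, with adjusted p of 0.58, 0.91, 0.99 and 0.23. Without the arrays that stand apart PHF1 gave -0.07 ± 0.09 with miR-16 and 0.12 ± 0.09 with miR-15b* (adjusted p = 0.68 and 0.45).

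JARID2, an accessory subunit of the other PRC2 form, had 9.79, 9.22 and 9.65 with miR-103 and 9.72, 9.82 and 9.68 with miR-107, against 9.42, 9.51 and 9.39 in negative control lysates. Its lysate changes against the control ran from -0.29 ± 0.19 (miR-16, adjusted p = 0.31; -0.09 without the arrays that stand apart) to 0.30 ± 0.19 (miR-107, adjusted p = 0.37), and 0 of 8 passed in limma. Without the arrays that stand apart the miR-107 change of 0.30 ± 0.10 passed (adjusted p = 0.028; 0.024 to 0.62 over all alternatives). MTF2, the third Polycomb-like gene, ranged from 6.74 to 8.50 over the 27 lysates, with 7.25, 7.98 and 7.86 in the negative control. Its changes ran from -0.62 ± 0.33 with miR-15b* to 0.52 ± 0.33 with miR-107-mut1, and in the fit with no filter the adjusted p were 0.26 and 0.54.

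By count, 2 of the 6 genes other than PHF19 that passed the filter were called against the control in the miR-103 lysate, where 17.2% of all genes tested were called, and 2 of 6 in the miR-107 lysate (14.9%). EZH1 and EZH2 were the genes called in both, as they were among the 2 of 6 with miR-16 (17%) and the 2 of 6 with miR-195 (14%). The miR-107-mut2 lysate had 1 of 6 (EZH1; 13.8% of all genes) and the miR-107-mut1 lysate 2 of 6 (PHF1 higher and EZH1 lower; 8.77%). None of the 6 was called with miR-320 (2.96%) or miR-15b* (7.54%) in limma, and at an unadjusted p under 0.05 the genes called over the whole array numbered 1262 and 2590. With 6 members a count of 1 or 2 says little beside shares of this size.

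**Figure D3:**
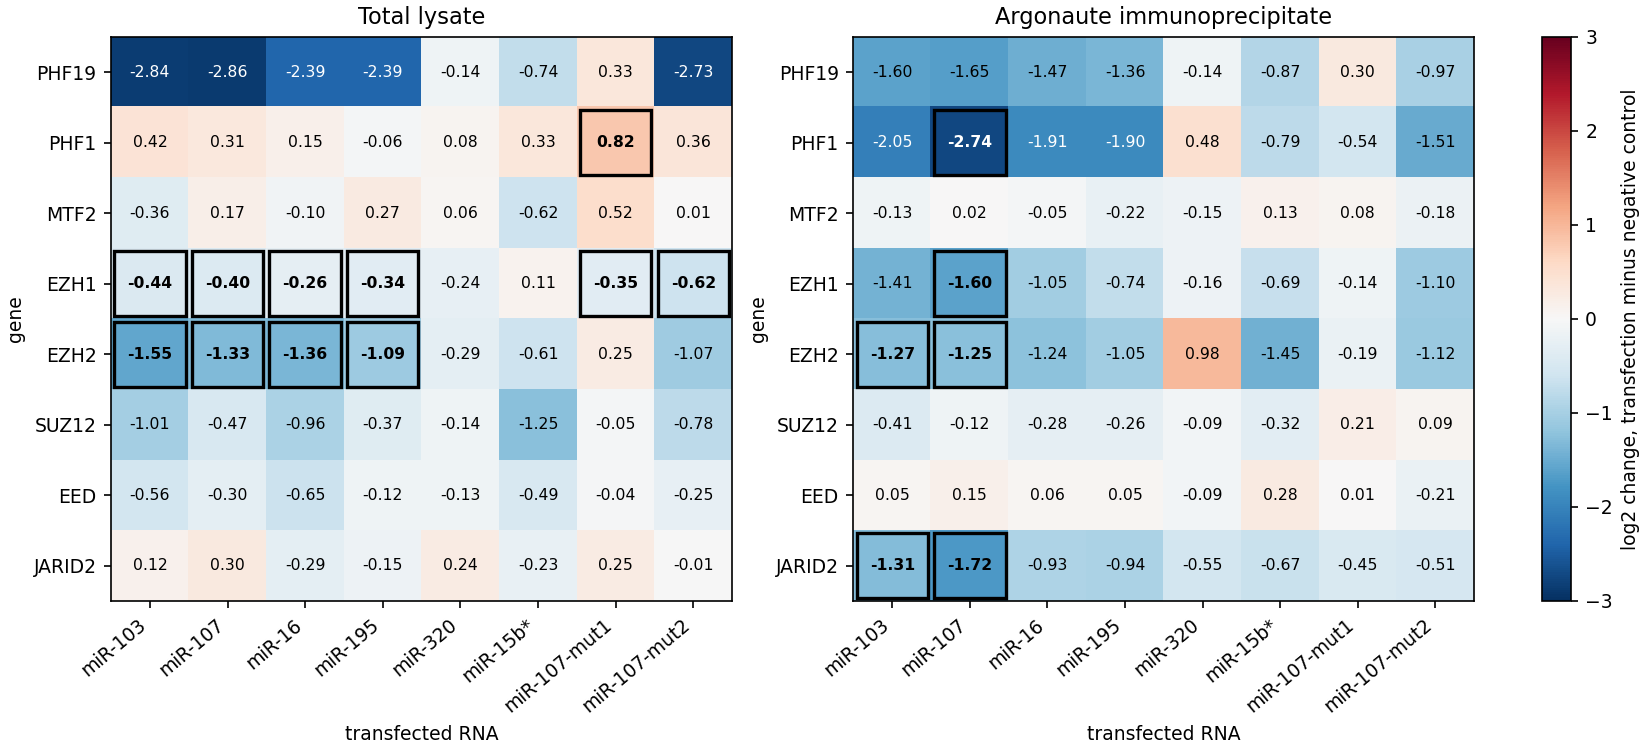
Log2 change of each gene (rows) against the negative control for each transfected RNA (columns) in the lysate (left) and the IP (right), with blue for lower, red for higher and a heavy outline where limma's adjusted p was below 0.05. PHF19 was not tested in the lysate and MTF2 fell below the filter, so neither carries an outline there. EZH1 and EZH2 are outlined with miR-107, miR-103, miR-195 and miR-16 in the lysate, and PHF1, EZH1, EZH2 and JARID2 with miR-107 in the IP.

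The messages differed in rank between the fractions of control cells. PHF1 stood at percentile 98.1 of genes in the control IP and at 88.1 in the control lysate. EZH1 stood at 80.3 in the IP against 62.9 in the lysate and JARID2 at 82.8 in the IP against 77.4 in the lysate. PHF19 ranked alike in both, at 88.5 in the IP against 89.5 in the lysate. EZH2 had an IP rank of 77.8 and a lysate rank of 84.9. SUZ12 (42.9 in the IP, 76.9 in the lysate), EED (37.4 in the IP, 58.9 in the lysate) and MTF2 (28.3 in the IP, 49.4 in the lysate) had the lowest IP ranks. These ranks are a description, since probe sets differ in response. In the IP the replicates of SUZ12, EED and MTF2 in all 27 arrays lay within 2.69 to 4.05, 2.61 to 3.90 and 2.20 to 3.24.

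In the IP, PHF19 had 4.08, 4.48 and 4.61 with miR-103, 4.31, 4.52 and 4.19 with miR-107, 4.39, 4.50 and 4.69 with miR-16 and 5.04, 3.97 and 4.88 with miR-195, against 5.66, 5.58 and 6.74 in negative control IPs. All 12 arrays of the group lay below the controls. The changes were -1.60 ± 0.54 with miR-103 (adjusted p = 0.14), -1.65 ± 0.54 with miR-107 (adjusted p = 0.085), -1.47 ± 0.54 with miR-16 (adjusted p = 0.24) and -1.36 ± 0.54 with miR-195 (adjusted p = 0.34), and none passed. Over all alternatives the adjusted p ran from 0.017 to 0.61 for miR-103, from 0.009 to 0.4 for miR-107, from 0.039 to 0.84 for miR-16 and from 0.068 to 1 for miR-195. With the replicate number as a block in limma, the adjusted p were 0.019, 0.0096, 0.039 and 0.068 in the same order. With miR-107-mut2 the IPs had 4.96, 4.80 and 5.33, a change of -0.97 ± 0.54 (adjusted p = 0.87), and with miR-15b* 3.69, 5.26 and 6.42 (-0.87 ± 0.54, adjusted p = 0.49). The lowest of the miR-15b* values is replicate 1, the array that stands apart, and without it the change was -0.15 ± 0.52 (adjusted p = 1; 0.059 to 1 over all alternatives). miR-320 IPs had 5.52, 5.37 and 6.67 (-0.14 ± 0.54, adjusted p = 1) and miR-107-mut1 IPs 5.24, 6.08 and 7.57 (0.30 ± 0.54, adjusted p = 1). PHF19 was 3.88-fold lower with miR-107 than with miR-107-mut1 (-1.96 ± 0.54, adjusted p = 0.038), and the replicates did not overlap. That call was lost on leaving out any 1 of the miR-107 IPs or replicate 2 or 3 of the miR-107-mut1 IPs (adjusted p 0.076 to 0.34). The change was -1.32 without miR-107-mut1 replicate 3, the highest PHF19 value of the IPs.

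PHF1 and JARID2, which were not called with miR-103 or miR-107 in the lysate, had lower values in the IP. PHF1 had 5.21, 5.59 and 4.87 in miR-107 IPs and 5.75, 6.13 and 5.87 in miR-103 IPs, against 7.53, 7.80 and 8.57 in negative control IPs. It fell 6.68-fold with miR-107 (-2.74 ± 0.61, adjusted p = 0.014), while the miR-103 change of -2.05 ± 0.61 (4.14-fold) missed the threshold (adjusted p = 0.089). The PHF1 changes with miR-16 (-1.91 ± 0.61, adjusted p = 0.16) and miR-195 (-1.90 ± 0.61, adjusted p = 0.2) did not pass either, although the replicates of both groups lay below every control. The miR-107 call was lost without miR-107 replicate 3 (adjusted p = 0.053) or control replicate 3 (adjusted p = 0.11), and without the miR-107 array that stands apart it was kept (-2.93 ± 0.55, adjusted p = 0.0053; 0.00044 to 0.11 over all alternatives).

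JARID2 had 3.78, 3.24 and 4.20 in miR-107 IPs and 4.26, 3.96 and 4.26 in miR-103 IPs, against 5.73, 4.95 and 5.72 in negative control IPs. It fell 3.30-fold with miR-107 (-1.72 ± 0.33, adjusted p = 0.0045), a call kept on leaving out each of the 6 arrays (adjusted p 0.0044 to 0.048). With miR-103 it fell 2.48-fold (-1.31 ± 0.33, adjusted p = 0.04), a call kept only without control replicate 2 when arrays were left out 1 at a time (adjusted p 0.028 to 0.24). The changes of -0.93 ± 0.33 with miR-16 (adjusted p = 0.22) and -0.94 ± 0.33 with miR-195 (adjusted p = 0.26) did not pass.

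EZH1 had 3.56, 3.57 and 3.90 in miR-107 IPs and 3.56, 4.23 and 3.82 in miR-103 IPs, against 4.98, 4.80 and 6.06 in negative control IPs. It fell 3.04-fold with miR-107 (-1.60 ± 0.38, adjusted p = 0.02) and gave -1.41 ± 0.38 with miR-103 (adjusted p = 0.054). The miR-107 call was lost without replicate 1 or 2 of miR-107 or control replicate 3 (adjusted p 0.057 to 0.19).

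EZH2 had 3.32, 3.95 and 4.32 in miR-107 IPs, 3.80, 3.77 and 3.97 in miR-103 IPs and 5.96, 5.74 and 6.58 in miR-320 IPs, against 5.02, 4.77 and 5.56 in negative control IPs. It fell 2.38-fold with miR-107 (-1.25 ± 0.33, adjusted p = 0.037) and 2.41-fold with miR-103 (-1.27 ± 0.33, adjusted p = 0.049). The miR-103 call was lost on leaving out any of its 6 arrays (adjusted p 0.055 to 0.34), and the miR-107 call without replicate 1 or 2 of miR-107 or replicate 1 or 3 of the control (adjusted p 0.075 to 0.25). With miR-16 (-1.24 ± 0.33, adjusted p = 0.075), miR-195 (-1.05 ± 0.33, adjusted p = 0.2), miR-107-mut2 (-1.12 ± 0.33, adjusted p = 0.22) and miR-15b* (-1.45 ± 0.33, adjusted p = 0.076) the EZH2 changes were of like size and did not pass. Without the miR-15b* IP array that stands apart, EZH2 gave -1.01 ± 0.32 there (adjusted p = 0.56; 0.0022 to 0.86 over all alternatives). The miR-320 IPs were all above the controls, and that change of 0.98 ± 0.33 did not pass (adjusted p = 0.22; 0.025 to 0.82 over all alternatives). In the miR-320 lysates EZH2 stood at 9.79, 9.58 and 9.86, against 9.77, 10.26 and 10.05 in the negative control.

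SUZ12 and EED passed in no IP comparison, with changes against the control from -0.41 (miR-103, adjusted p = 0.43) to 0.21 (miR-107-mut1, adjusted p = 1) for SUZ12 and from -0.21 (miR-107-mut2, adjusted p = 1) to 0.28 (miR-15b*, adjusted p = 0.67; -0.02 without the array that stands apart) for EED. Both genes passed the filter on their mean over both fractions. In the control IPs they averaged 3.28 (SUZ12) and 3.03 (EED), below the array means of 3.61 to 3.65. Such signals may leave little room for a fall, so the missing calls say little. MTF2 changes in the IP ran from -0.22 to 0.13 in the fit with no filter.

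**Figure D4:**
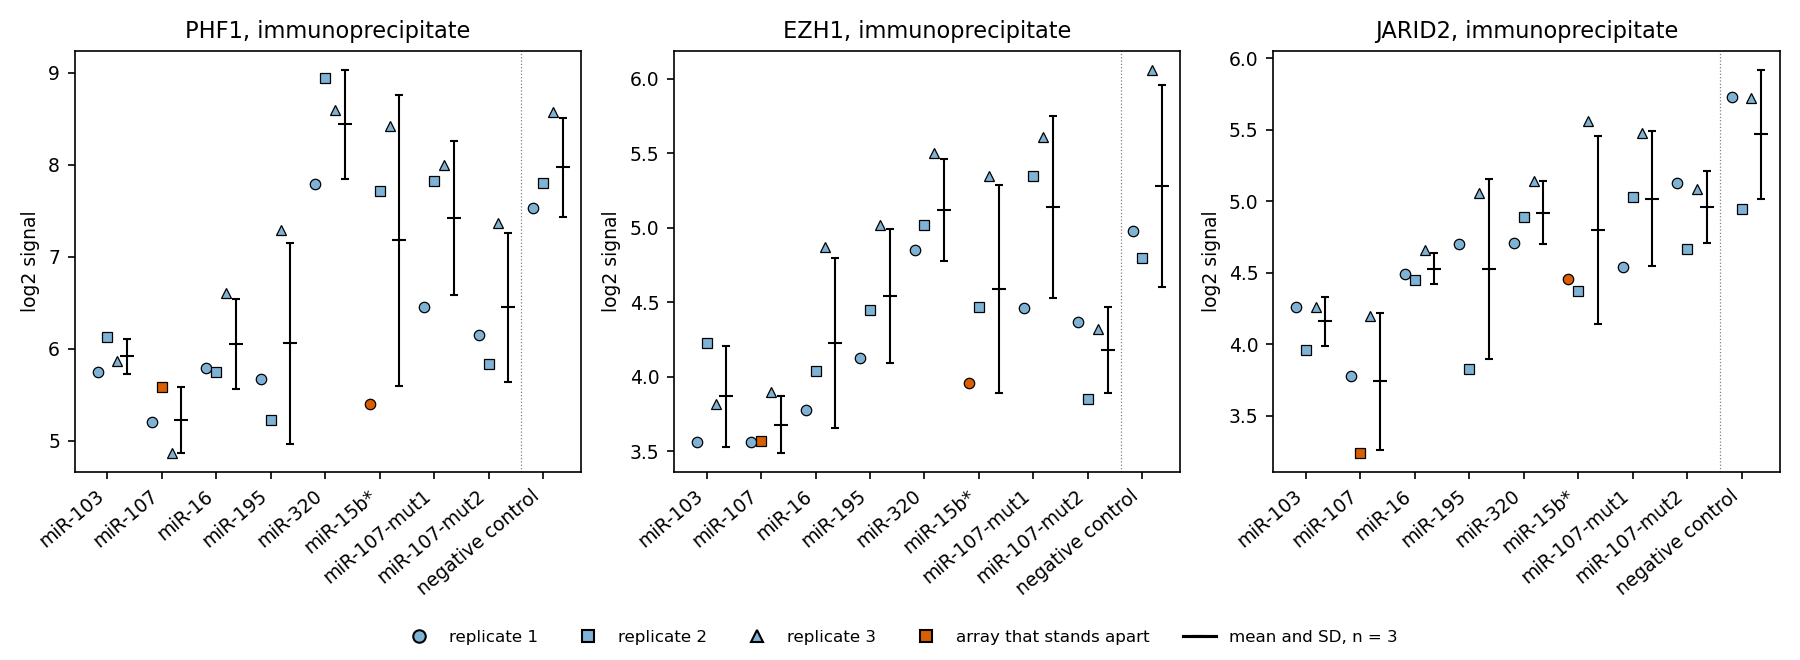
IP log2 signal (vertical axis) of PHF1, EZH1 and JARID2 after each transfection, drawn as markers for 3 replicates beside their mean and SD, with arrays that stand apart in orange. The miR-103 and miR-107 IPs lie below all 3 negative control IPs in every panel, and PHF1 in miR-107 IPs lies between 4.87 and 5.59.

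The count was 4 of 7 members in the miR-107 IP (PHF1, EZH1, EZH2 and JARID2), where 3.83% of all genes were called and 3.61% were called lower. The median change of all genes tested there was -0.19. The count was 2 of 7 in the miR-103 IP (EZH2 and JARID2), where 2.03% were called and 1.79% were called lower, with a median of -0.09. The SD within an array was 1.56 to 1.70 in miR-107 IPs, 1.69 to 1.79 in miR-103 IPs and 1.84 to 1.99 in control IPs. The part of this narrower spread in these falls was not tested. None of the 7 was called in limma with miR-16 (1.26%), miR-195 (0.67%), miR-320 (2.21%), miR-15b* (0.217%), miR-107-mut1 (0.742%) or miR-107-mut2 (0.344%). The genes at an unadjusted p under 0.05 numbered from 545 to 1478 in those 6 comparisons. The other tools and settings gave 0 to 5 of 7 for miR-16 and 0 to 3 of 7 for miR-195. Both upper counts were reached with the replicate number as a block, which also gave 5 of 7 for miR-103. After cyclic loess, which brings the arrays to a common curve, the changes with miR-107 were -2.06 for PHF1, -1.48 for EZH1, -1.14 for EZH2 and -1.58 for JARID2, all below 0 and called as before.

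The change in the IP was then set against the change in the lysate of the same transfection, in 1 fit of all 54 arrays, in which a constant offset between the fractions cancels but a difference in scale does not. That fit treats the IP and lysate arrays as independent, although they come from the same transfections. For miR-103 and miR-107 together, 3 of 6 members were called, where 6.54% of all genes were. PHF1 had an IP change 2.76 below its lysate change on the log2 scale (-2.76 ± 0.57, adjusted p = 0.0012), JARID2 one of -1.72 ± 0.34 (adjusted p = 0.00065) and EZH1 one of -1.09 ± 0.34 (adjusted p = 0.046). The PHF1 and JARID2 calls were kept on leaving out each of the 18 arrays, and EZH1 was kept in 4 of the 18 (adjusted p 0.018 to 0.33) and missed without the arrays that stand apart (adjusted p = 0.051). EZH2 gave 0.18 ± 0.44 (adjusted p = 0.86), with a 95% interval of -0.71 to 1.06 and a value of -0.07 without the arrays that stand apart, and SUZ12 and EED gave 0.48 ± 0.44 and 0.53 ± 0.34 (adjusted p = 0.57 and 0.39). The low IP signals of SUZ12 and EED enter their differences, and the part they play was not tested. PHF19, described with no test since its lysate change enters, gave 1.22 ± 0.52, so that its IP change was smaller than its lysate change.

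For miR-16 and miR-195 together, 1 of 6 members was called, against 2.91% of all genes. PHF1 gave -1.95 ± 0.57 (adjusted p = 0.048), a call kept in 3 of the 18 fits with an array left out (adjusted p 0.0084 to 0.22) and kept without the arrays that stand apart (-1.84 ± 0.47, adjusted p = 0.012). JARID2 gave -0.71 ± 0.34 (adjusted p = 0.33) and EZH1 -0.60 ± 0.34 (adjusted p = 0.45), and PHF19 gave 0.97 ± 0.52 with no test. The 2 pairs of microRNAs share their control arrays.

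**Figure D5:**
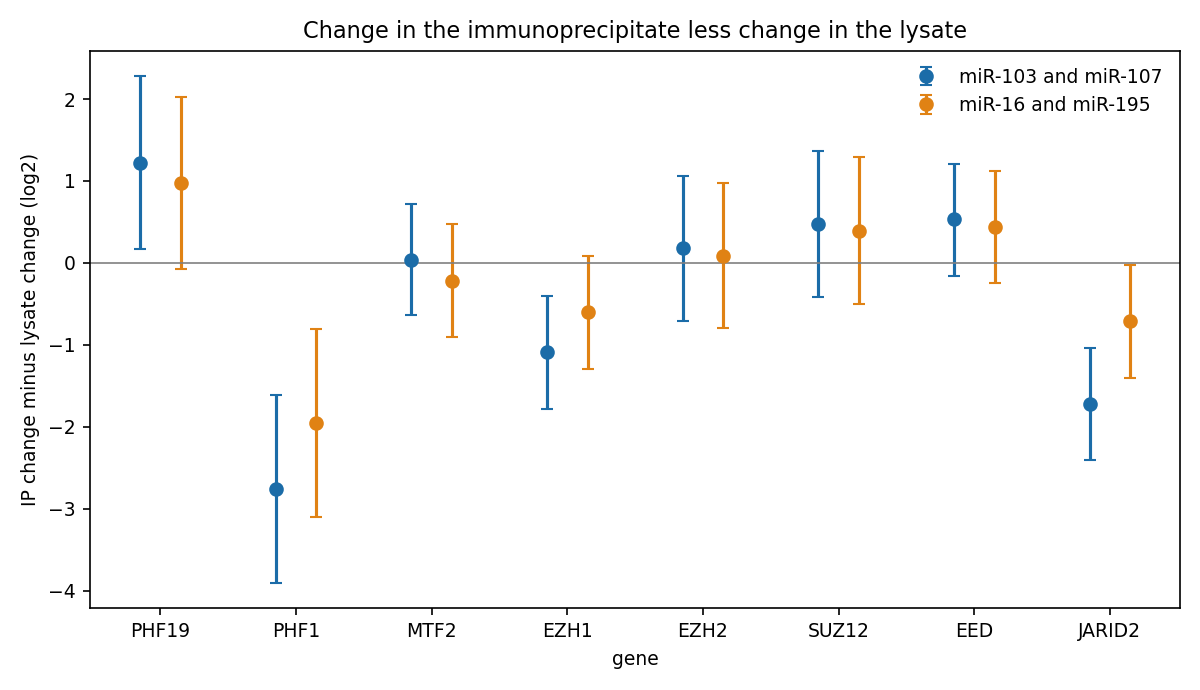
IP change minus lysate change of each gene on the log2 scale, with 95% intervals, for miR-103 and miR-107 together and for miR-16 and miR-195 together, each against the negative control. PHF1 and JARID2 lie below 0 for miR-103 and miR-107, at -2.76 and -1.72, EZH2 lies near 0, and PHF19 above it at 1.22 and 0.97.

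The seed pairs were compared directly. In the lysate 1 of 6 members differed between miR-103 with miR-107 and miR-16 with miR-195, where 10% of all genes did. JARID2 was 1.34-fold higher with miR-103 and miR-107 (0.43 ± 0.13, adjusted p = 0.043), and its call was lost in 9 of the 12 fits with an array left out (adjusted p 0.015 to 0.12) and kept without the arrays that stand apart (0.41 ± 0.08, adjusted p = 0.00097). PHF1 gave 0.32 ± 0.12 (adjusted p = 0.1), and 0.35 ± 0.06 without those arrays (adjusted p = 0.00062; 0.00062 to 0.23 over all alternatives). EZH2 gave -0.22 ± 0.26 (adjusted p = 0.73), with an interval of -0.75 to 0.32. In the IP 0 of 7 members differed, where 0.38% of all genes did, and 702 genes had an unadjusted p under 0.05. The largest of these IP differences were -0.61 ± 0.27 for EZH1 (adjusted p = 0.72) and -0.58 ± 0.23 for JARID2 (adjusted p = 0.67), and PHF19 gave -0.21 ± 0.38 with an interval of -1.01 to 0.58.

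The 2 altered forms were then set against miR-107 itself. Between miR-107 and miR-107-mut1 lysates 2 of 6 members differed, where 13.5% of all genes did. EZH2 averaged 8.70 with miR-107 and 10.27 with miR-107-mut1, 2.98-fold lower (-1.57 ± 0.37, adjusted p = 0.0043), a call kept on leaving out each of the 6 arrays. PHF1 was 1.43-fold lower with miR-107 (-0.52 ± 0.17, adjusted p = 0.043), a call lost on leaving out any of the 6 (adjusted p 0.08 to 0.14). EZH1, called lower than the control with both molecules, did not differ between them by more than its spread (-0.04 ± 0.08, interval -0.21 to 0.12). In the IP 4 of 7 members were lower with miR-107 than with miR-107-mut1, where 5.05% of all genes were called and 4.86% were called lower. The 4 were PHF19, PHF1 (-2.20 ± 0.61, adjusted p = 0.039), EZH1 (-1.46 ± 0.38, adjusted p = 0.026) and JARID2 (-1.28 ± 0.33, adjusted p = 0.027). The PHF19 test is not independent of its selection on lysates of the same transfections. Left out 1 at a time, 5 of the 6 arrays (all but miR-107-mut1 replicate 1) ended the PHF1 call, and 4 of the 6 (all but that array and miR-107 replicate 3) ended the EZH1 and JARID2 calls. Without miR-107-mut1 replicate 3 the adjusted p were 0.2 to 0.24 for these 3 genes. Without the miR-107 IP array that stands apart EZH1 and JARID2 had adjusted p of 0.055 and 0.11.

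miR-107 and miR-107-mut2 differed in 0 of 6 members in the lysate and 0 of 7 in the IP, where 0.0814% and 0.0362% of all genes did. At an unadjusted p under 0.05 there were 465 genes in the lysate and 991 in the IP. EZH2 in the lysate gave -0.25 ± 0.37, with an interval of -1.01 to 0.51, and EZH1 gave 0.23 ± 0.08, higher with miR-107 (adjusted p = 1). In the IP JARID2 gave -1.22 ± 0.33 (adjusted p = 0.41), with 3.78, 3.24 and 4.20 for miR-107 and 5.13, 4.67 and 5.09 for miR-107-mut2. Its replicates did not overlap, and the adjusted p ran from 0.034 to 0.98 over the alternatives.

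Genes whose lysate pattern was most like that of PHF19 were ranked by Pearson correlation over the 9 group means, as a description over points that share arrays and controls. The highest of 11049 genes were H2AC6 (0.992), a histone gene, NIF3L1 (0.992), CENPO (0.99), OIP5 (0.99) and CDC45 (0.989), a replication factor, and CENPO and OIP5 take part in centromere assembly. The lowest were SEMA7A (-0.988), RIT1 (-0.988), PRSS23 (-0.983), GLI3 (-0.981) and SPATA13 (-0.981). EZH2 ranked 82 (0.96), EZH1 1651 (0.60), EED 1859 (0.56), SUZ12 1884 (0.56), JARID2 3860 (0.19) and PHF1 4030 (0.16).

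A list of 16 E2F-responsive S phase genes, of which 11 were tested, was set beside the PRC2 genes because EZH2 and EED are known to respond to E2F. All 11 fell in the miR-103, miR-107, miR-16, miR-195 and miR-107-mut2 lysates, with median changes of -1.74, -1.59, -1.16, -1.16 and -1.32. The shares of all genes called lower there were 8.88%, 8.35%, 7.45%, 7.22% and 7.58%. None of the 11 passed with miR-107-mut1 (median 0.01), 4 fell with miR-320 (median -0.64) and 5 with miR-15b* (median -0.53). The median of all genes tested lay between 0 and 0.05 in these 8 comparisons. The shares of all genes called lower were 5.44% with miR-107-mut1, 1.5% with miR-320 and 4.04% with miR-15b*. MCM7, a subunit of the replicative helicase, averaged 8.80 in miR-107 lysates and 10.73 in control lysates (-1.93 ± 0.14, adjusted p = 2.3e-09). CCNA2, the cyclin of S phase and mitosis, averaged 8.13 in miR-16 lysates and 10.26 in control lysates (-2.12 ± 0.23, adjusted p = 1e-06). A lower share of dividing cells and less RNA per cell cannot be told apart in these bulk samples, and neither was measured.

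Of 16 tested genes of PRC1, the complex that ubiquitinates histone H2A, 1 rose and 3 fell with miR-103, 3 fell with miR-107, 1 rose and 3 fell with miR-16, and 3 fell with miR-195, with medians of -0.14, -0.15, 0.00 and -0.05. The shares of all genes called in these lysates were 17.2%, 14.9%, 17% and 14%, so the counts of 3 or 4 of 16 are near the background. CBX6, a chromodomain subunit, fell with miR-195 (-0.94 ± 0.15, adjusted p = 9.9e-05; 9.64 with miR-195 and 10.58 in the control) and SCMH1 with it (-0.53 ± 0.12, adjusted p = 0.0038). Of 6 other PRC2 genes, 1 fell with miR-107 and none was called with miR-103, miR-16 or miR-195 in the lysate. EZHIP, an inhibitor of the EZH2 active site, was the gene that fell with miR-107 (-0.52 ± 0.17, adjusted p = 0.045, and 0.054 with no filter; 9.72 with miR-107 and 10.24 in the control). In the IP EZHIP rose with miR-107-mut1, to 7.79 against 5.30 in the negative control (2.48 ± 0.30, adjusted p = 2.2e-05). It was lower with miR-107 than with miR-107-mut1 in the IP (-2.17 ± 0.30, adjusted p = 7.2e-05), with a miR-107 mean of 5.62. RBBP7, a histone-binding PRC2 subunit, fell in the miR-107 IP (-1.82 ± 0.40, adjusted p = 0.013) and the miR-103 IP (-1.78 ± 0.40, adjusted p = 0.02). Its means were 4.65 with miR-107 and 4.70 with miR-103, against 6.48 in the control IPs. RBBP4, its close relative, fell with miR-15b* in the lysate (-0.58 ± 0.14, adjusted p = 0.011; 11.63 with miR-15b* and 12.21 in the control).

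Of the 2 genes tested that remove the mark PRC2 makes, KDM6B was called and KDM6A was not, with list medians of 0.09 with miR-103 and 0.25 with miR-107 in the lysate. KDM6B rose 1.56-fold in the miR-103 lysate (0.64 ± 0.15, adjusted p = 0.0041) and 1.53-fold in the miR-107 lysate (0.61 ± 0.15, adjusted p = 0.0053), with means of 10 with miR-103 and 9.98 with miR-107 against 9.37 in the control. It also rose with miR-16 (0.47 ± 0.15, adjusted p = 0.03). In the IP it fell with miR-103 (-1.21 ± 0.28, adjusted p = 0.023) and with miR-107 (-1.66 ± 0.28, adjusted p = 0.0016), with means of 6.20 with miR-103 and 5.76 with miR-107 against 7.42 in the control. Its IP change less its lysate change was -2.06 ± 0.28 for miR-103 and miR-107 (adjusted p = 2.8e-06) and -1.36 ± 0.28 for miR-16 and miR-195 (adjusted p = 0.0027), below 0 as for PHF1. EZHIP was called the other way for miR-103 and miR-107 (1.03 ± 0.30, adjusted p = 0.028). Of 8 tested genes published as repressed by PRC2, 1 rose in every one of the 8 lysate comparisons, and 2 fell with miR-103 and with miR-16. The share of all genes called in either direction was 17.2% with miR-103, 14.9% with miR-107, 17% with miR-16, 14% with miR-195 and 13.8% with miR-107-mut2. With 8 genes a single call is near these shares. The share was lower with miR-107-mut1 (8.77%), miR-15b* (7.54%) and miR-320 (2.96%), and 1 gene of 8 says little beside it. The gene that rose was FBXO32, a ubiquitin ligase subunit, which averaged 11.97 with miR-107 and 9.28 in the control (2.68 ± 0.22, adjusted p = 1.7e-08). FBXO32 also rose with miR-107-mut1 (0.92 ± 0.22, adjusted p = 0.0088) and miR-320 (0.95 ± 0.22, adjusted p = 0.017), where the PHF19 changes were 0.33 and -0.14. SLIT2 and BMPR1B were the 2 that fell, with changes of -1.29 ± 0.42 and -0.77 ± 0.23 with miR-103 (adjusted p = 0.039 and 0.024). The list medians lay between -0.05 and 0.19 in these comparisons.

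Promoter windows were searched because EZH2 and PHF19 moved alongside the E2F-responsive genes. RefSeq (GRCh38.p14) windows of 300 bases, from 250 before to 50 after a gene's start, were read on both strands for TTTCCCGC, TTTCGCGC, TTTGCCGC and TTTGGCGC, the spellings of an E2F-type site. Of the 11 windows of the 8 genes 5 held a match, in 5 genes, while 3.31% of all 35116 windows and 6.23% of 8777 tested genes with a window did. The matches are shown with 11 bases on either side, in the orientation of the gene and with the match in capitals.
EZH2: gggctgccgcgTTTGGCGCtcggtccggtc
PHF19: gtcaataattcGCGGGAAAacgcgaaaaag
SUZ12: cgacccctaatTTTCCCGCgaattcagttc
EZH1: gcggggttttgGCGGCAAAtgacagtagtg
MTF2: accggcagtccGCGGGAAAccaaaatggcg
They lie at chr7:148884272-148884301 (minus strand, EZH2), chr9:120877322-120877351 (minus strand, PHF19), chr17:31936807-31936836 (plus strand, SUZ12), chr17:42745137-42745166 (minus strand, EZH1) and chr1:93079277-93079306 (plus strand, MTF2). PHF1, EED and JARID2 had none of these spellings in their windows, although EED is named above as responding to E2F. Of the genes with a match, EZH2 and EZH1 were called lower in lysates. SUZ12 was called in no lysate comparison with all arrays and the groups alone, and MTF2 fell below the filter. Whether the matches go with the lysate changes was not tested. A match is a description of the letters and not a bound site, and the absence of a match says only that these letters are not in the window.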

How the data were processed

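RNA of 9 transfections of H4 cells, as anti-Argonaute immunoprecipitate and as total lysate, was hybridised to 54 Affymetrix Human Gene 1.0 ST arrays, 3 biological replicates per group. The authors deposited 1 table of RMA values, read here as log2, which the submitters' processing notes credit to Expression Console 1.1 of Affymetrix. The base of the logarithm is not given in the sources used here, and no background or detection values were used. RMA is meant to bring arrays to a common distribution, and array means were alike within each fraction, so a shift shared by all messages may not show. The spread was not common, since the SD within an array ran from 1.35 to 2.02 in the IP. The median change of all genes tested was -0.19 in the miR-107 IP.

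Of 33297 probe sets, 19460 carried 1 gene symbol, 1754 several and 12083 none in the platform annotation. Of the 19460 probe sets, 19429 matched a gene ID of RefSeq (GRCh38.p14) and took the symbol given there. Each of 18417 genes took its probe set of highest mean. Leaving out the 40% of genes with the lowest mean over all arrays (under 5.26) left 11050. MTF2 was left out by this filter, and its values come from the fit without it.

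IP and lysate arrays were fitted apart with limma 3.58.1 (R 4.3.3) on 9 groups of 27 arrays each, with all groups sharing 1 estimate of the spread, and differences between the fractions on all 54. Genes were called at a Benjamini-Hochberg adjusted p below 0.05 over all genes tested, and every adjusted p in the text is limma's. The fits were tested on simulated data. Replicates of a group correlated at 0.965 to 0.995 in the lysates and 0.796 to 0.973 in the IP.

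The members, the lists (other PRC2 genes, PRC1, histone H3 lysine 27 demethylases, PRC2-repressed genes, E2F-responsive S phase genes, and neuronal, glial and haematopoietic markers), the tests and the alternatives were chosen with earlier results of these data known. Every member is named. Of the lists, the text names called genes that are among the 3 of largest change in a comparison, and SUZ12P1 was chosen after its values were seen. Every listed marker with a value is printed. Likeness to PHF19 names the 5 genes of highest and the 5 of lowest correlation. Alternatives were no filter, the mean of a gene's probe sets, eBayes with trend and robust settings, cyclic loess, only the arrays compared, the replicate number as a block, leaving out the 5 arrays that stand apart, and leaving out each array in turn. Figures were drawn with matplotlib 3.10.9.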

Additional observations from a re-analysis of the deposited data

Results flagged for a closer look

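For miR-103 and miR-107 together, 3 genes changed differently in the IP and in the lysate by a test of the difference itself, each lower in the IP. The IP change less the lysate change was -2.76 for PHF1, -1.72 for JARID2 and -1.09 for EZH1 on the log2 scale. For miR-16 and miR-195 together the same difference was -1.95 for PHF1. The IP arrays spread over a narrower range of values than the lysate arrays (SD within an array of 1.35 to 2.02 in the IP and 2.5 to 2.57 in the lysates), and the part of that difference in these results was not tested. The replicates within the IP correlated less closely than those within the lysates.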

How the results depend on the processing

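Of the changes of single members under all alternatives, 2258 kept their side of the threshold, 113 lost a call, 64 gained one and 1 moved (PHF19). The sign changed in 70 values, 0 of them called in either setting, and the largest such change was PHF1 with miR-15b* in the IP, 0.1 without replicate 1 and -0.79 with it. The PHF19 difference between fractions for miR-103 and miR-107 was 1.6 without control IP replicate 3. Members called in the lysate changed as follows. Without the arrays that stand apart there were 4 for miR-103, 5 for miR-107, 1 for miR-16, 1 for miR-320, 1 for miR-15b*, 4 for miR-107-mut2 and 3 between the seed pairs. With only the arrays compared there were 5 for miR-107, 0 for miR-16, 4 for miR-107-mut2 and 0 between the seed pairs. With no filter there were 1 for miR-195, 0 between the seed pairs and 1 between miR-107 and miR-107-mut1, and miR-195 also had 1 with trend and robust settings and 1 with the mean of probe sets. In the IP, miR-103 had 0 with no filter, 5 after cyclic loess, 5 with only the arrays compared and 4 without the arrays that stand apart. miR-16 had 2 after cyclic loess, 1 with only the arrays compared and 2 without the arrays that stand apart, and miR-195 and miR-15b* had 1 each after cyclic loess. miR-107 against miR-107-mut1 had 2 with only the arrays compared and 2 without the arrays that stand apart.

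The deviations of same-numbered samples had a mean correlation of 0.31 in the lysates (79 of 108 pairs above 0.1, from -0.47 to 0.95) and 0.27 in the IP (84 of 108, from -0.15 to 0.67). For other numbers the means were -0.14 and -0.13. Deviations within a group cancel, so these means largely follow from the same-number values and are no separate comparison. Not every pair was above 0.1 and no label says what a number marks, and the numbers were not taken to pair the samples. With the replicate block, members called in the lysate were 1 for miR-15b* (SUZ12, adjusted p = 0.048) and 2 for miR-107-mut2, and in the IP 5 for miR-103, 5 for miR-16, 3 for miR-195, 1 for miR-320, 1 for miR-15b*, 2 for miR-107-mut2 and 1 between miR-107 and miR-107-mut2.

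Leaving out each array in turn gave in the lysate 2 to 2 members for miR-103, 1 to 2 for miR-107, 0 to 4 for miR-16, 1 to 1 for miR-195, 0 to 1 for miR-15b*, 0 to 1 between the seed pairs and 1 to 1 between miR-107 and miR-107-mut1. In the IP it gave 0 to 2 for miR-103, 1 to 4 for miR-107, 0 to 2 for miR-15b* and 0 to 5 between miR-107 and miR-107-mut1. Between the fractions it gave 2 to 3 for miR-103 and miR-107 and 0 to 1 for miR-16 and miR-195.

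The genes called over the whole array moved by more than 1.5 times in every comparison: against the control in the lysate from 1182 to 2834 (miR-103), 1210 to 3012 (miR-107), 616 to 2639 (miR-16), 1030 to 2924 (miR-195), 139 to 996 (miR-320), 50 to 1509 (miR-15b*), 576 to 2119 (miR-107-mut1) and 1032 to 3462 (miR-107-mut2). In the IP they ran from 46 to 850, 92 to 1950, 19 to 586, 16 to 396, 148 to 395, 0 to 1407, 18 to 169 and 6 to 156 in the same order. Between the seed pairs they ran from 670 to 1801 in the lysate and 26 to 102 in the IP, between miR-107 and miR-107-mut1 from 1009 to 2706 and 166 to 2012, between miR-107 and miR-107-mut2 from 0 to 39 and 1 to 38, and between the fractions from 434 to 1875 and 185 to 856. The cause was not tested. Signal over background was not available as a value, and 3 arrays a group limit what could be called.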
